A study of Mus musculus with 12 samples.

Results

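Bbs9, Fbf1 and Evi5l are 3 mouse genes whose products act at the primary cilium. They were followed exon by exon in all 6 tables of the series by taking every row that carries their symbols, or the same gene model name, and dropping repeated rows. This gave 79 of the 925 exon bins in the tables, of which 29 belong to Bbs9, 37 to Fbf1 and 13 to Evi5l, which are 3 of 58 gene models. An exon bin is a stretch of exon that no splice form of the gene divides further. The source was D1, a mouse cell line. Each of the 12 samples was assembled from sequencing reads on a computer. The base of a sample was a TruSeq library, a poly(A)-selected RNA-seq library without strand marking, prepared from either 1000 ng or 100 ng of RNA. On top came reads of chosen transcripts, drawn from a kit library read to a depth of 20M, 40M or 80M reads (M for mega). The kit was either NuGENv2, started from 2 ng of RNA, or TruSeq, started from 100 ng. Both backgrounds also received synthetic reads of further transcripts, per the labels. The comparison throughout is 1000 ng against 100 ng background, 5 replicate columns against 5, in each of the 6 combinations of kit and depth. The labels do not say whether replicates came from separate cultures, so that p-values measure the spread between these columns only.

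The primary cilium is a single antenna-like extension of the cell that is built on the mother centriole. Bbs9 encodes a subunit of the BBSome, a coat-like complex that moves membrane proteins into and out of the cilium, and is one of the Bardet-Biedl syndrome genes. Fbf1 encodes a protein of the distal appendages that tie the mother centriole to the membrane and help gate entry into the cilium. Evi5l encodes a TBC-domain protein, a class that switches off Rab GTPases, and has been tied to the control of ciliogenesis. Of 51 other cilium genes listed for comparison (further BBSome, appendage, transport and Rab genes), 0 were among the 58 models, so the 3 genes cannot be set against their pathway here. Of 14 marker genes for the possible cell types of the line, 3 (Sirpa, Mgl2 and Il18rap) were present, so the identity of the line could not be checked.

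The labels name transcripts of all 3 genes among the mixed-in reads. For Bbs9, 1 of 6 transcripts of the model (uc012gpo.1) is on a list of synthetic reads, for the 1000 ng background. For Evi5l, uc009kta.1 is on the synthetic list of the 1000 ng background and uc009ktc.1 on that of the 100 ng background. For Fbf1, uc007mki.1 and uc007mkf.1 are on the list of reads taken from the kit libraries, for the 100 ng background. Rows of the tables are bins that several transcripts share, so a listed transcript was not measured alone.

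The genes lie on 3 chromosomes of the NCBIM37 (mm9) build. Bbs9 spans chr9:22280159-22692724 on the plus strand, Fbf1 chr11:116003599-116029480 on the minus strand and Evi5l chr8:4166567-4208046 on the plus strand. Bins are numbered by ascending coordinate, so E001 is the 5′ end of Bbs9 and Evi5l and the 3′ end of Fbf1. By their lengths and order, 27 of the Bbs9, 36 of the Fbf1 and 10 of the Evi5l bins matched exon parts of the GENCODE annotation. The Evi5l bins E004, E012 and E013 were among those with no match. The last matched Evi5l bin, E011, ends at 4193366 and the annotated gene at 4208046, so the Evi5l total may cover only part of the gene. The following sequences, read from the genome 5′ to 3′ on the strand of the gene, are of bins the results below turn on. Capitals mark 2 very short coding exons of Bbs9, E018 at chr9:22452464-22452478 and E019 at chr9:22458516-22458532, and the 3-base bin E019 of Fbf1 at chr11:116014259-116014261, each with 20 bases on either side. Fbf1 E026 (chr11:116019003-116019141), Evi5l E010 (chr8:4193120-4193217) and Evi5l E011 (chr8:4193306-4193366) are whole coding exons. Fbf1 E026 is shown because it was called in all 6 tables, and the Evi5l exons because each was called in 4. The tables share the reads of their backgrounds, so these calls do not count as independent repeats.
Bbs9 E018: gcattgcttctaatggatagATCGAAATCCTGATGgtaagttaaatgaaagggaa
Bbs9 E019: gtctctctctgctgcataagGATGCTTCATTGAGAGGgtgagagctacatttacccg
Fbf1 E019: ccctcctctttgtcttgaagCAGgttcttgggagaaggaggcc
Fbf1 E026: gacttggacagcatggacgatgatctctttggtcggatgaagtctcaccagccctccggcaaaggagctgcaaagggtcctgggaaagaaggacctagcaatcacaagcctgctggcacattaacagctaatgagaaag
Evi5l E010: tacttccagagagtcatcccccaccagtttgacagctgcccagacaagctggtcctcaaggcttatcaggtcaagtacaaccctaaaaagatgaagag
Evi5l E011: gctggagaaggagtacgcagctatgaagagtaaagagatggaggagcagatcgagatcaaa
Both Bbs9 exons follow ag and precede gt, the letters at the ends of most introns. The letters after the capitals of Fbf1 E019 belong to the adjoining coding bin E018. Bbs9 E018 has 15 bases, a multiple of 3, and Bbs9 E019 has 17, which is not. Fbf1 E019 is annotated as part of an exon: 1 annotated form of that exon starts 3 bases before the other.

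The deposited values were whole reads divided by bin length, except that the fifth 100 ng column was in another unit, divided further by its library total. Reads were recovered from them, scaled with a size factor per column and expressed as FPKM equivalents (reads relative to bin length and library size). Totals of a gene are its summed reads over its summed bin length. A column of the 1000 ng background had 347941 to 593002 reads in all bins, and one of the 100 ng background 237258 to 492142. In 1 sample, 100 ng with TruSeq 20M, the columns had 1101798 to 1281559. Relative to the 20M NuGENv2 table, that sample had 864540 more reads in every column, spread over 916 of 925 bins. Its comparison with the 1000 ng background is therefore given separately, at the end.

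In the other 5 tables the 3 genes behaved differently from each other. Bbs9 and Evi5l held exactly the same reads, bin for bin, in all 5, so any change of their test results between these tables comes from the scaling and from the other genes. Fbf1 held the same reads in the 1000 ng background and gained reads in the 100 ng background with depth and with the TruSeq kit. With 20M NuGENv2 reads, limma called 1 of the 79 bins (limma fitted to log2(FPKM equivalent + 1), Benjamini-Hochberg adjusted p under 0.05), against 1.95% of all bins tested. The count was 6 of 79 at 40M NuGENv2 reads (5.09% of all bins), 7 at 80M NuGENv2 reads (11.8%), 17 at 40M TruSeq reads (17.2%) and 25 at 80M TruSeq reads (21.3%). Leaving out replicate 5 of the 1000 ng background gave 3, 7 and 12 bins in the NuGENv2 tables. At 20M the count was 0 without replicates 1, 3 or 4 of the 1000 ng or 1, 2, 4 or 5 of the 100 ng background. At 40M it was 2 without replicates 3 or 4 of the 1000 ng and 3 without replicates 1 to 4 of the 100 ng background, and at 80M it was 4 without replicate 2 of the 1000 ng or replicates 1 or 5 of the 100 ng background. As shares of the 79 bins the counts over all columns are 1.27%, 7.59%, 8.86%, 21.5% and 31.6%, to be read against the shares of all bins beside them. Each of these bins was higher with 100 ng, and the shares of all bins called in that direction were 0.758%, 2.92%, 6.82%, 10.8% and 13.4%. None belonged to Bbs9, and Fbf1 supplied 19 of the 25 at 80M TruSeq reads. The median log2 difference over the 79 bins (1000 ng minus 100 ng) went from -0.01 at 20M NuGENv2 reads to -0.20 at 80M TruSeq reads, while that over all bins was 0.00 and 0.04.

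**Figure D1:**
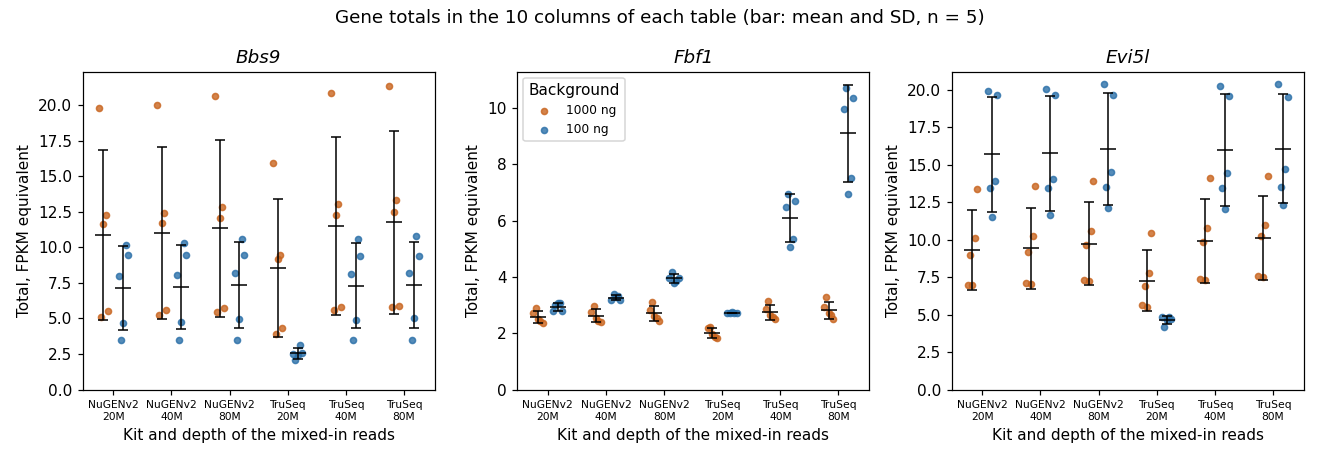
Totals of Bbs9, Fbf1 and Evi5l in FPKM equivalents (linear axis) in each of the 10 columns of the 6 tables. Points are columns, orange for the 1000 ng and blue for the 100 ng background, and bars give the mean and SD of 5. Bbs9 columns overlap between backgrounds outside the TruSeq 20M table. The 100 ng columns of Fbf1 sit at 2.79 to 3.09 with 20M NuGENv2 reads and at 6.94 to 10.7 with 80M TruSeq reads. The Evi5l means lie higher in the 100 ng background in 5 tables and lower in the TruSeq 20M table.

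Bbs9, the BBSome subunit, varied more between replicates than between backgrounds. Its model had 3107, 1425, 1655, 1971 and 709 reads in the 5 columns of the 1000 ng background and 818, 322, 968, 1805 and 878 in those of the 100 ng background. On the FPKM-equivalent scale at 20M NuGENv2 reads these were totals of 19.8, 5.10, 11.6, 12.2 and 5.51 against 7.995, 3.49, 4.67, 10.1 and 9.46. The highest 1000 ng column was 3.87 times the lowest, and the 2 groups overlapped. The means were 10.8 ± 5.99 (SD, n = 5) and 7.15 ± 2.94 (SD, n = 5), a log2 difference of 0.47 with a standard error of 0.40 (limma adjusted p = 0.530). In the other 4 of these tables the difference was 0.48 to 0.55, with limma adjusted p between 0.357 and 0.515. Quantile normalization gave 0.63 to 0.94 in the 5 tables, with limma adjusted p between 0.0506 and 0.442. The background whose list names a Bbs9 transcript thus had the higher mean, but by less than the spread between replicates.

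No Bbs9 bin passed in these 5 tables, although 23 of its 29 bins at 20M NuGENv2 reads had the higher fitted level in the 1000 ng background. In limma, 1 bin (E005) was under an unadjusted p of 0.05, and the smallest adjusted p was 0.235 there and 0.0935 at 80M TruSeq reads. The backgrounds overlapped in all 29 bins, while 5.95% of all bins at 20M NuGENv2 reads did not overlap. Bin usage, the change of a bin relative to the rest of its gene (limma diffSplice), was called for 0 Bbs9 bins in the 5 tables, against 3.9% of all bins at 20M NuGENv2 reads, and 2 of them had an unadjusted p under 0.05 in each table. By the fixed rule, the bins with most reads were E027 and E026. E027 had 446, 195, 235, 284 and 105 reads in the 1000 ng columns and 125, 44, 121, 259 and 118 in the 100 ng columns, a log2 difference of 0.56 (SE 0.45, limma adjusted p = 0.668). E026, a coding exon like E027, differed by 0.47 (SE 0.42, limma adjusted p = 0.690).

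The largest fitted differences of Bbs9 were those of its 2 shortest exons. E018, the 15-base exon printed above, had 121, 37, 57, 69 and 20 reads in the 1000 ng columns. In the 100 ng columns it had 27, 7, 20, 60 and 29 reads. Its log2 difference was 0.74 (SE 0.60, limma adjusted p = 0.668). E019, of 17 bases, had 31, 9, 15, 16 and 4 reads against 6, 2, 4, 15 and 6, a log2 difference of 0.75 (SE 0.60, limma adjusted p = 0.668). Both exons were thus read in every column of both backgrounds, and neither separated them. Set against the mean of the neighbouring coding exons E017 and E020, E018 had 67.7 ± 10.7 reads per 100 with 1000 ng and 63.6 ± 17.5 with 100 ng (SD, n = 5 each). E019 had 16.3 ± 3.75 and 14.7 ± 3.91 per 100. A read counts whole in a bin shorter than itself, so levels per length of such short bins cannot be set beside those of longer ones. The fit to log2(FPKM equivalent + 1) understates the change of low bins, so the ranking of the fitted differences depends on level per length too.

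Reads of Bbs9 lay mostly in the 3′ part of the gene. Bins E017 to E029 held 93.6% ± 2.57 of its reads with 1000 ng and 91.1% ± 3.35 with 100 ng (SD, n = 5 each), leaving 6.41% ± 2.57 and 8.90% ± 3.35 to the 16 bins before them. This boundary was chosen after the values were seen, so it is a description with no test. The first 16 bins hold the start of the coding sequence (E005 is partly coding), and E014 and E015 were the coding exons there with the largest differences toward the 100 ng background, at -0.59 and -0.60 (SE 0.43 and 0.41, limma adjusted p = 0.627 and 0.584).

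Fbf1, the distal appendage gene, changed with every change of kit or depth of the mixed-in reads. With 20M NuGENv2 reads its model had 423, 805, 356, 387 and 302 reads in the 1000 ng columns and 285, 275, 631, 546 and 257 in the 100 ng columns. The totals were 2.71, 2.90, 2.52, 2.42 and 2.36 FPKM equivalents against 2.80, 3.00, 3.06, 3.09 and 2.79, with overlap between the backgrounds. From there each 100 ng column gained 36 reads at 40M NuGENv2 reads, 108 at 80M NuGENv2 reads, 362 at 40M TruSeq reads and 706 at 80M TruSeq reads. The TruSeq values are net, since 5 bins held fewer reads at 40M and 2 at 80M TruSeq reads than at 20M NuGENv2 reads. The gain was identical in all 5 columns, bin by bin, so the added reads are 1 draw and their own sampling error is not part of any p-value given here.

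The Fbf1 total moved in the same order. The log2 difference was -0.14 (SE 0.05, limma adjusted p = 0.118) at 20M NuGENv2 reads, where 5.17% of model totals were called. It was -0.24 (limma adjusted p = 0.00867; 17.2% of totals called) at 40M and -0.42 (limma adjusted p = 0.00039; 24.1%) at 80M NuGENv2 reads. With TruSeq reads it was -0.92 (limma adjusted p = 3.34e-05; 39.7%) at 40M and -1.39 (limma adjusted p = 8.47e-06; 41.4%) at 80M. At 80M TruSeq reads the 100 ng columns stood at 9.97, 10.7, 6.94, 7.52 and 10.3 FPKM equivalents and the 1000 ng columns at 2.93, 3.29, 2.70, 2.63 and 2.51. The backgrounds did not overlap in any table from 40M NuGENv2 reads on. Quantile normalization ended the NuGENv2 calls of this total (log2 differences -0.03 and -0.19, limma adjusted p = 0.831 and 0.160). Size factors from models on no kit-read list ended the call at 40M NuGENv2 reads (-0.24, limma adjusted p = 0.101).

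Fbf1 bins passed in numbers of 1, 4 and 4 of 37 at 20M, 40M and 80M NuGENv2 reads and of 12 and 19 at 40M and 80M TruSeq reads, all higher in the 100 ng background. As shares these are 2.7%, 10.8%, 10.8%, 32.4% and 51.4% of its bins. The shares of all bins were 1.95%, 5.09%, 11.8%, 17.2% and 21.3%, so the counts at 20M and 80M NuGENv2 reads are near the general rate. Of the 37 bins, 1 bin, the coding exon E026 printed above, passed already at 20M NuGENv2 reads. It had 7, 17, 7, 8 and 4 reads in the 1000 ng columns and 11, 8, 15, 14 and 9 in the 100 ng columns. After scaling these were 1.87, 2.55, 2.07, 2.09 and 1.31 against 4.51, 3.64, 3.04, 3.30 and 4.07 FPKM equivalents, with no overlap. The log2 difference was -0.67 (SE 0.13, limma adjusted p = 0.0413). That call was lost when any column other than replicate 2 of the 1000 ng or replicate 3 of the 100 ng background was left out (limma adjusted p 0.0541 to 0.105 in those 8 fits, 0.018 and 0.0432 in the remaining 2).

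At 80M NuGENv2 reads the 4 Fbf1 bins called were E001, E026, E029 and E036. E036, a non-coding bin of 587 bases at the 5′ end, had 27, 45, 23, 24 and 15 reads in the 1000 ng columns and 61, 59, 77, 71 and 60 in the 100 ng columns. Its log2 difference was -1.28 (SE 0.15, limma adjusted p = 0.000741). E026 stood at -1.25, E029 at -1.31 and E001, the last exon with the end of the coding sequence, at -0.60 (limma adjusted p = 0.00105, 0.0021 and 0.00207). The same 4 bins were called at 40M, where E001 was at -0.42 and E029 at -0.97 (limma adjusted p = 0.0222 and 0.0263). At 40M, E001 lost its call without replicates 3 or 4 of the 1000 ng or replicates 1 or 4 of the 100 ng background (limma adjusted p 0.0525 to 0.0636). E029 lost its call there without replicates 3, 4 or 5 of the 1000 ng or replicates 2 or 3 of the 100 ng background (0.0525 to 0.0648).

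With TruSeq reads further Fbf1 bins were called. At 40M the 12 were E001, E006, E007, E010 to E014, E018, E026, E036 and E037, of which E001, E026 and E036 had also passed with NuGENv2 reads. At 80M TruSeq reads the largest of 19 was E037, a 30-base bin at the 5′ edge with no match in the annotation. E037 had 1, 3, 3, 1 and 1 reads in the 1000 ng columns and 13, 12, 17, 13 and 12 in the 100 ng columns, a log2 difference of -2.87 (SE 0.26, limma adjusted p = 5.55e-05). E001 followed with 71, 124, 53, 66 and 41 reads against 430, 420, 489, 477 and 429, a log2 difference of -2.60 (SE 0.18, limma adjusted p = 1.38e-05). The next were E010 at -1.67, E018 at -1.56, E006 at -1.55 and E014 at -1.45, with limma adjusted p between 6.18e-05 and 0.000993. In these 6 bins, chosen for their size, the lowest 100 ng column lay above the highest 1000 ng column. This held for 16 of the 37 Fbf1 bins and for 18.3% of all bins in that table.

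The Fbf1 reads drawn from the 2 kit libraries lay in different parts of the gene. Between 20M and 80M, 108 NuGENv2 reads arrived in 18 of the 37 bins. The 5′ bin E036 received 35 of them, 32.4% (exact 95% binomial interval 23.7 to 42.1%), and the 3′ bin E001 received 20, 18.5% (11.7 to 27.1%). The 17 bins E019 to E035, the 5′ part of the gene, received 38.9% (29.7 to 48.7%). Between 40M and 80M, 344 TruSeq reads arrived in 29 bins. Here E001 received 186 of them, 54.1% (48.6 to 59.4%), and E036 received 25, 7.27% (4.76 to 10.5%). E019 to E035 together received 4.94% (2.90 to 7.79%). The intervals of the 2 kits do not overlap for E001, E036, E019 to E035 or E002 to E017. For E018 they overlap, at 2.78% (0.577 to 7.90%) with NuGENv2 and 7.27% (4.76 to 10.5%) with TruSeq. For E037 they also overlap, at 0% (0 to 3.36%) and 1.45% (0.474 to 3.36%). All these intervals cover counting error only and treat reads as independent, which reads of a PCR-amplified library need not be. Each kit is represented by 1 library. Kit and RNA input (2 ng for NuGENv2, 100 ng for TruSeq) cannot be told apart. For the 16 bins E002 to E017 the shares were 7.41% (3.25 to 14.1%) with NuGENv2 and 25% (20.5 to 29.9%) with TruSeq.

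**Figure D2:**
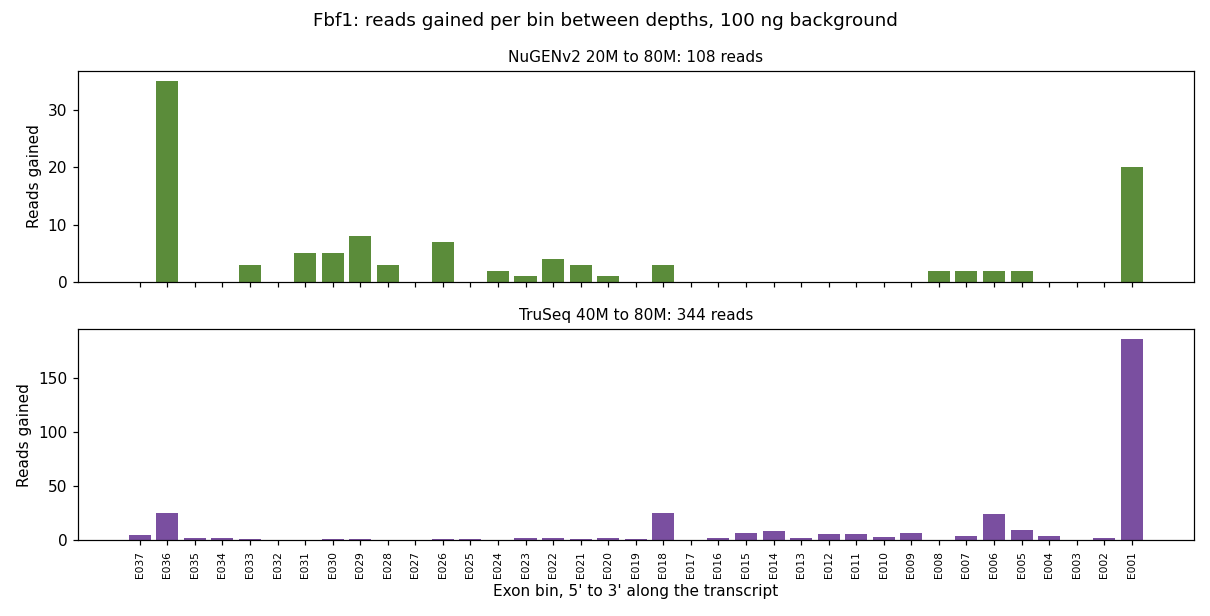
Reads gained per Fbf1 bin in each 100 ng column, ordered 5′ to 3′, between 20M and 80M NuGENv2 reads (top) and between 40M and 80M TruSeq reads (bottom). The vertical axes are linear and differ. The tallest NuGENv2 bar is E036 with 35 of 108 reads and the tallest TruSeq bar is E001 with 186 of 344.

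Bin usage of Fbf1 changed too. By limma diffSplice it was called for 0 bins at 20M and 40M NuGENv2 reads, where 0 and 4 bins had an unadjusted p under 0.05 (5.52% of all bins called at 40M), and for E026, E029, E031 and E036 at 80M (10.8%), all toward the 100 ng background (4.87% of all bins). The relative log2 differences of these 4 were -0.98, -1.05, -1.23 and -1.02 (limma diffSplice adjusted p = 0.0168, 0.00975, 0.00129 and 0.0121). At 40M TruSeq reads, with 13.9% of all bins called, E001, E010 and E037 moved toward the 100 ng background and E019 and E023 toward 1000 ng (5.84% and 8.01% of all bins). The TruSeq 80M table (19.2%) had 12 such Fbf1 bins, 5 toward the 100 ng background (E001, E006, E010, E018 and E037) and 7 toward the 1000 ng background (E008, E019, E021, E023, E024, E027 and E028), against 7.79% and 11.4% of all bins. Usage is relative within the gene. The reads in the 1000 ng columns were the same throughout, and the 17 bins E019 to E035 together held 3 more reads at 40M and 20 more at 80M TruSeq reads than at 20M NuGENv2 reads.

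E019 of Fbf1, the 3-base stretch shown in capitals, had 7, 10, 8, 3 and 3 reads in the 1000 ng columns and 1, 5, 5, 7 and 2 in the 100 ng columns at 20M NuGENv2 reads. It gained 0 reads at 80M NuGENv2 reads and 1 read at 80M TruSeq reads. Its relative usage at 80M TruSeq reads was 0.77 toward the 1000 ng background (limma diffSplice adjusted p = 0.0377), on a bin with at most 10 reads a column.

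Of the models on the 100 ng kit-read list, 16 gained reads between 40M and 80M. Among these, Fbf1 was in the middle by TruSeq reads, in the lower part by NuGENv2 reads and on the upper side by their ratio. It gained 72 NuGENv2 and 344 TruSeq reads, a ratio of 4.78, while the median of the 16 was 3.38, the lowest 0.304 (Fxyd5) and the highest 10 (Rhbdd3). There were 4 models with a higher ratio, and 7 gained fewer TruSeq reads.

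Evi5l, the Rab regulator, had the higher mean in the 100 ng background in these 5 tables, with overlapping columns and calls that depended on single columns. Its model had 592, 1355, 534, 875 and 928 reads in the 1000 ng columns and 1097, 669, 1284, 1330 and 983 in the 100 ng columns in all 5 tables. At 20M NuGENv2 reads the totals were 6.99, 9.01, 6.97, 10.1 and 13.4 FPKM equivalents against 19.9, 13.5, 11.5, 13.9 and 19.7. The ranges overlapped through replicate 5 of the 1000 ng background, whose 13.4 lies above replicate 3 of the 100 ng background at 11.5. The means were 9.29 ± 2.66 and 15.7 ± 3.85 (SD, n = 5 each), a log2 difference of -0.70 (SE 0.21, limma adjusted p = 0.0737).

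The same reads passed the threshold in the other 4 tables. The log2 difference was -0.69 at 40M and -0.68 at 80M NuGENv2 reads and -0.65 and -0.63 at 40M and 80M TruSeq reads, with limma adjusted p of 0.0472, 0.0361, 0.0302 and 0.0283. Along this order the difference shrank slightly and the unadjusted p rose from 0.00762 at 20M NuGENv2 reads to 0.0107 at 80M TruSeq reads, while the adjusted p fell and the share of the 58 totals called rose. Leaving out single columns changed the calls. Without replicate 1 or 3 of the 1000 ng or replicate 1 or 5 of the 100 ng background the total passed in none of the 4 tables (limma adjusted p 0.0596 to 0.108). Without replicate 4 of the 100 ng background it passed only at 80M TruSeq reads, and without replicate 4 of the 1000 ng background only in the TruSeq tables. It also failed at 40M and 80M NuGENv2 reads without replicate 2 of the 1000 ng background and at 40M without replicate 2 of the 100 ng background. Without replicate 5 of the 1000 ng background it passed in all 5, including 20M NuGENv2 reads (limma adjusted p = 0.0402). Quantile normalization gave -0.43 to -0.68 and ended the call at 40M NuGENv2 and at both of these TruSeq depths (limma adjusted p 0.0642 to 0.0833). Size factors from models on no kit-read list ended it at 40M NuGENv2 reads (-0.69, limma adjusted p = 0.0573).

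All 13 Evi5l bins had the higher fitted level in the 100 ng background in these tables, and 11 of them had an unadjusted limma p under 0.05 in each, against 18% of all bins at 20M NuGENv2 and 30.2% at 80M TruSeq reads. After adjustment 0 passed at 20M NuGENv2 reads, 2 at 40M, 3 at 80M, 5 at 40M TruSeq reads and 6 at 80M TruSeq reads. As shares of its bins these are 0%, 15.4%, 23.1%, 38.5% and 46.2%. The shares of all bins called rose as well, at 1.95%, 5.09%, 11.8%, 17.2% and 21.3%. The 2 at 40M NuGENv2 reads were E010 and E011, the adjoining coding exons printed above. Only in these 2 of the 13 bins did the backgrounds not overlap. This held for 5.95% of all bins at 20M NuGENv2 reads and 18.3% at 80M TruSeq reads. E010 had 44, 80, 33, 58 and 56 reads in the 1000 ng columns and 58, 43, 95, 90 and 59 in the 100 ng columns, which at 20M NuGENv2 reads scaled to 16.7, 17.1, 13.9, 21.5 and 26.02 against 33.9, 27.8, 27.4, 30.2 and 38.0 FPKM equivalents. E011 had 27, 47, 19, 42 and 39 reads against 45, 33, 70, 64 and 46, or 16.6, 16.2, 12.9, 25.2 and 29.3 against 42.5, 34.6, 32.6, 34.7 and 47.9 FPKM equivalents. The separation appeared only after scaling for depth, since the unscaled reads of both bins overlap between backgrounds.

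The log2 difference of E010 was -0.72 and that of E011 -0.95 at 20M NuGENv2 reads (SE 0.17 and 0.22, limma adjusted p = 0.0597 and 0.0578). At 40M NuGENv2 reads they were -0.71 and -0.94 (limma adjusted p = 0.0446 and 0.0401), a pair of calls that held only when no column or replicate 5 of the 1000 ng background was left out (0.0525 to 0.0935 otherwise). At 80M NuGENv2 reads they were -0.69 and -0.92 (limma adjusted p = 0.0258 and 0.0222). There E010 lost its call without replicates 1, 2 or 3 of the 1000 ng or replicates 1, 4 or 5 of the 100 ng background (0.0504 to 0.0606), and E011 without replicate 2 of the 1000 ng or replicates 1 or 5 of the 100 ng background (0.0508 to 0.0542). At 40M TruSeq reads they were -0.66 and -0.90 (limma adjusted p = 0.024 and 0.0196), and E010 lost its call without replicate 1 of the 100 ng background (0.0531). At 80M TruSeq reads they were -0.64 and -0.88 (limma adjusted p = 0.02 and 0.0152), and both held without any 1 column. E013, the last bin of the model at 861 bases, was the next, at -0.95 (SE 0.25, limma adjusted p = 0.042) at 80M NuGENv2 reads. E006 and E007 joined at 40M TruSeq reads (-0.86 and -0.71, limma adjusted p = 0.0486 and 0.0495) and E009 at 80M TruSeq reads (-0.64, limma adjusted p = 0.0439). These last 4 bins overlapped between the backgrounds, and each lost its call in 6 or more of the 10 fits without 1 column, among them those without replicates 1, 2 or 3 of the 1000 ng or replicates 1, 4 or 5 of the 100 ng background (limma adjusted p 0.051 to 0.114 over all fits that lost it).

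**Figure D3:**
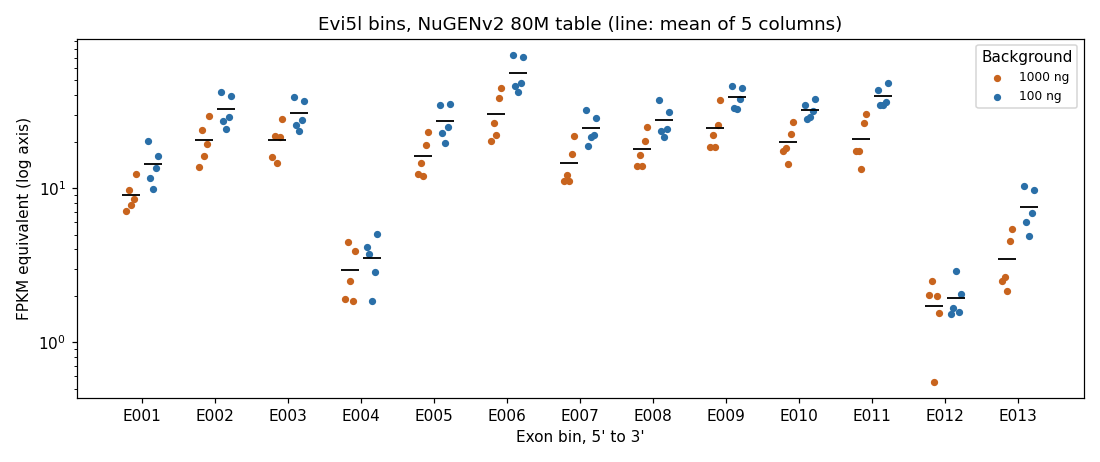
Level of each Evi5l bin in the 80M NuGENv2 table in FPKM equivalents (log axis), with 1 point per column, orange for the 1000 ng and blue for the 100 ng background, and a line at each mean. The columns separate fully for E010 and E011 only. E004, E012 and E013 lie lowest.

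Within Evi5l, limma diffSplice called the usage of 0 bins in these 5 tables, and 1 bin had an unadjusted p under 0.05 in each, while a different transcript is listed for each background. Over all bins, usage was called for 3.9% at 20M NuGENv2 reads and up to 19.2% at 80M TruSeq reads. The share of the gene's reads in E013 was 9.58% ± 1.79 with 1000 ng and 12.8% ± 1.14 with 100 ng (SD, n = 5 each). E004, a 730-base bin, held 7.12% ± 2.48 against 5.07% ± 1.15. E012, the bin before E013, held 0.887% ± 0.429 against 0.633% ± 0.311. In each of these bins the difference of the shares went with no usage call at an adjusted p under 0.05.

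The order of the 3 genes by level per length, at 20M NuGENv2 reads, differed between the backgrounds. In the 1000 ng background Bbs9 (10.8 ± 5.99) and Evi5l (9.29 ± 2.66) lay within each other's spread, and Fbf1 was lowest (2.58 ± 0.220, SD, n = 5 each). In the 100 ng background Evi5l (15.7 ± 3.85) was above Bbs9 (7.15 ± 2.94), with no column of Evi5l below a column of Bbs9, and Fbf1 (2.95 ± 0.144) was again lowest. At 80M TruSeq reads Fbf1 (9.10 ± 1.74) had reached the range of Bbs9 (7.36 ± 3.04) in the 100 ng background. Levels of bins of unequal length make up these totals, so the order is descriptive.

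The models whose log2 totals followed each gene most closely over the 10 columns at 20M NuGENv2 reads were different for each. For Bbs9 they were B3gat3 (Pearson r = 0.61) and Saal1 (0.45), for Fbf1 Kcnn4 (0.95) and Pla2g15 (0.95), and for Evi5l Ppp2r3a (0.83) and Dnaja1 (0.78), the highest and next highest by Pearson r of 57 models. By Spearman's rho, Gmfg (0.64) stood above B3gat3 (0.62) for Bbs9. The columns share their libraries and the contrast of backgrounds, so these are descriptions only. Kcnn4 and Pla2g15 are, like Fbf1, models that gain kit reads in the 100 ng background.

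The 100 ng sample with 20M TruSeq reads gave a different picture for all 3 genes. It added 2126 reads to Bbs9, 2887 to Fbf1 and 1957 to Evi5l in each of its 5 columns, the same reads in each. These are 2.42, 10.1 and 1.78 times the median of the 100 ng columns at 20M NuGENv2 reads, and 2.22 times over all bins. Of the 79 bins, 41 were called against the 1000 ng background (62.4% of all bins), 20 higher in the 1000 ng and 21 higher in the 100 ng background (32.6% and 29.9% of all bins). The split depends on the scaling. With size factors from models on no kit-read list it was 14 against 48, and the median over all bins moved by -0.43. Reads were added to 916 of the 925 bins here, so models on no such list gained reads too. These factors are therefore not free of the addition. The median moved by -0.30 with quantile normalization, where the split was 16 against 34. The divisor of the fifth 100 ng column, taken as its library total, was 200.9 in this table. In the other tables it was 16.02 to 16.16. The rise thus went beyond the reads in these bins, as far as that column shows. The other columns carry no such divisor. The sources used here do not give the origin of the added reads, and it was not tested.

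In that table the Bbs9 total was 1.29 higher in the 1000 ng background on the log2 scale (SE 0.32, limma adjusted p = 0.0048, where 79.3% of totals were called). It was 0.74 with size factors from models on no kit-read list (limma adjusted p = 0.0471). The Evi5l total turned its direction, at 0.52 (SE 0.15, limma adjusted p = 0.00893), with no overlap of the backgrounds. But it stood at 0.02 with quantile normalization and at -0.03 with size factors from models on no kit-read list (limma adjusted p = 0.883 and 0.791). The Fbf1 total was -0.31 (SE 0.04, limma adjusted p = 0.000145), and -0.70 with the latter factors. All 5 of the 100 ng columns hold the same added reads, which narrows their spread. There the SD of log2(total + 1) was 0.148 for Bbs9, 0.0726 for Evi5l and 0.00387 for Fbf1. At 20M NuGENv2 reads it was 0.577, 0.331 and 0.0529. The p-values, standard errors and lack of overlap in this table therefore leave out the sampling error of the added reads.

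The added reads of Bbs9 had another profile than either background. They held 1 read of E018 and 0 of E019, while the neighbours E017 and E020 received 70 and 91. Per 100 reads of those neighbours this is 1.24 for E018, against 55.6 to 81.2 in the 1000 ng columns and 43.8 to 83.1 in the 100 ng columns. For E019, 0 of 2126 reads has an exact 95% upper bound of 0.173% of the gene's reads, against 0.782% ± 0.182 and 0.656% ± 0.156 in the backgrounds. E021, a 770-base stretch annotated as a non-coding part of an exon just before coding exon E022, held 0.564% (0.292 to 0.984%) of the added reads against 4.03% ± 0.616 and 3.70% ± 0.530. The first 16 bins held 26.9% (25.03 to 28.8%) of the added reads, against 6.41% and 8.90% in the backgrounds. Of the 29 Bbs9 bins, 28 had a share of the added reads outside the range of all 10 columns, 11 below and 17 above. The same count was not made over the bins of other genes, so it cannot be called particular to Bbs9.

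**Figure D4:**
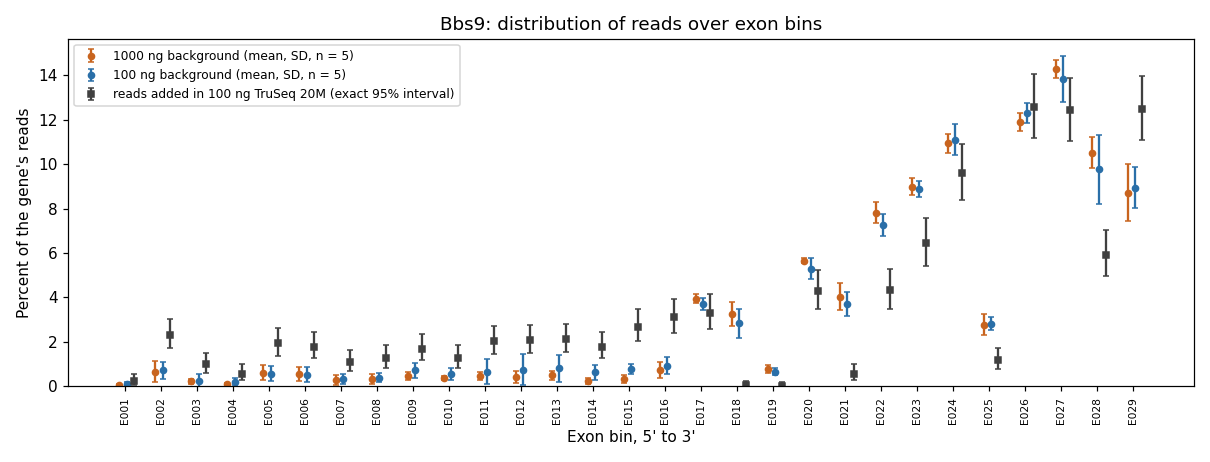
Percent of Bbs9 reads in each bin, 5′ to 3′. Circles give the mean and SD of 5 columns of the 1000 ng (orange) and 100 ng (blue) background at 20M NuGENv2 reads. Squares give the 2126 reads added to the 100 ng background in the TruSeq 20M table, with exact 95% intervals. On this linear axis the backgrounds lie close together. In relative terms some low bins differ: E014 held 0.247% with 1000 ng and 0.627% with 100 ng, and E015 0.344% and 0.780%. The squares are near 0 at E018 and E019 and above both backgrounds from E001 to E016.

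In the tests on that table the short exons led. E018 stood at 256, 42.2, 131, 137 and 50.3 FPKM equivalents in the 1000 ng columns and at 9.91, 2.83, 6.73, 19.9 and 10.7 in the 100 ng columns. The log2 difference was 3.40 (SE 0.59, limma adjusted p = 0.00127), the largest of the gene. E019 followed at 3.01, E022 at 2.03, E028 at 2.02, E023 at 1.75 and E020 at 1.69 (limma adjusted p between 0.0015 and 0.00354). Usage was called for 19 Bbs9 bins (18.1% of all bins), 9 toward 1000 ng (9.52%), all from E017 on, and 10 toward 100 ng (8.55%), all up to E016.

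In Fbf1, 1 of 37 bins had a share of the 2887 added reads outside the range of the 10 columns. Its columns held only 257 to 805 reads, which makes these ranges wide, and the difference from Bbs9 was not tested. Here too no count over all bins was made. Usage was called for 1 bin, E037, against 18.1% of all bins. Fbf1 bins were called 17 times, 45.9% of its bins against 62.4% of all bins, and 16 of these were higher in the 100 ng background. The largest 6 were E037 at -0.85, E017 at -0.61, E028 at -0.60, E015 at -0.57, E026 at -0.56 and E014 at -0.50 (limma adjusted p between 0.000843 and 0.028). E015 lost its call without replicate 3 of the 1000 ng or replicates 1 to 4 of the 100 ng background (limma adjusted p 0.0523 to 0.0627).

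In Evi5l the added reads put 1.28% (0.828 to 1.88%) in E004 and 1.74% (1.21 to 2.42%) in E013, both below every column of both backgrounds, and 3.01% (2.30 to 3.87%) in E012, above every column. In all, 10 of 13 bins were outside the range, 3 below and 7 above, again with no count over all bins to set beside it. Usage was called for E001 and E004 toward the 1000 ng background and for E012 toward the 100 ng background, at 0.49, 0.66 and -0.97 (limma diffSplice adjusted p = 0.0455, 0.00417 and 8.75e-06). These 3 of 13 bins are to be read against 18.1% of all bins, 9.52% toward 1000 ng and 8.55% toward 100 ng. At the level of single bins 7 of 13 passed (53.8%, against 62.4% of all bins). E004 at 1.03, E001 at 0.88, E013 at 0.84, E002 at 0.66, E003 at 0.61 and E008 at 0.45 were higher in the 1000 ng background and E012 at -0.47 in the 100 ng background. E002, E003 and E008 lost their calls under quantile normalization and under the factors from models on no kit-read list, and E008 turned to -0.02 and -0.15. E012 lost its call without any 1 column of the 100 ng background or without replicate 5 of the 1000 ng background (limma adjusted p 0.0536 to 0.0629), and E008 without replicate 2 of the 100 ng background (0.0527).

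**Figure D5:**
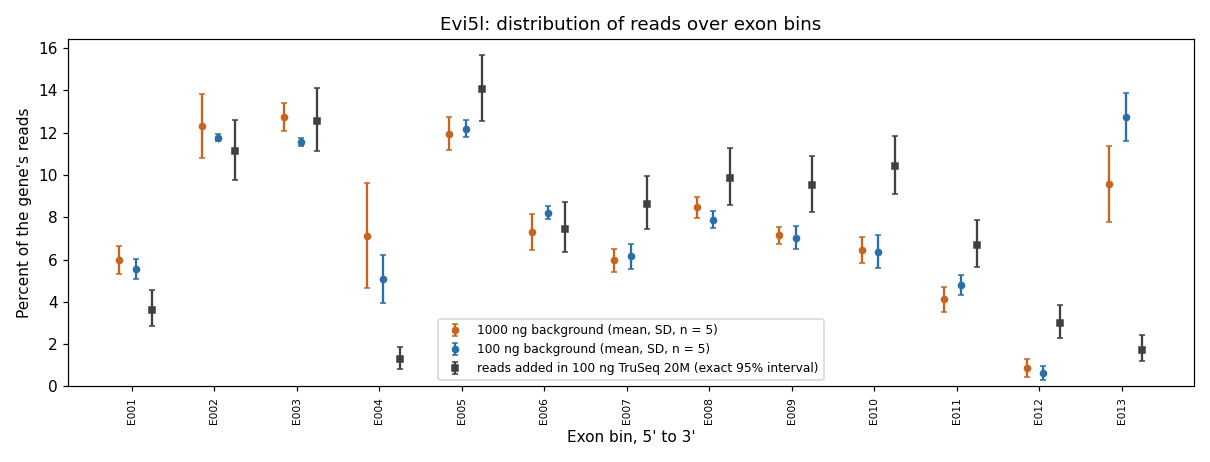
Percent of Evi5l reads in each bin, 5′ to 3′, with the symbols as for Bbs9. Of the added reads, 1.28% fell in E004 and 1.74% in E013, below both backgrounds, and 3.01% in E012, above them.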

How the data were processed

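RNA-seq reads of D1 cells were combined into 12 samples by the submitters, each with 5 replicate columns, in 6 tables of exon bins. The submitters' processing notes name STAR, Cuffdiff and the mm9 build. The counting step (not given in the sources used here) preceded deposition. The values deposited by the authors are a signal per bin, called here coverage: every value came out as whole reads divided by the bin length less 1 base (100% within 0.001 reads), and the fifth 100 ng column was divided by its library total as well. This is another unit than the one the design of the tests had assumed from the labels, so reads were first recovered and then scaled to FPKM equivalents with median-of-ratios size factors over all bins.

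Differences between the backgrounds were fitted to log2(FPKM equivalent + 1) with limma 3.58.1 in R 4.3.3, in each table alone, for bins and for model totals, and bin usage with limma diffSplice. All p-values are two-sided and were adjusted by Benjamini-Hochberg over all bins or totals of a table, with a threshold of 0.05. A fold change on this scale understates the change of low bins. Bins of models on no transcript list needed a mean of at least 1, and all 79 bins of the 3 genes were tested, so that no filter chose among them. The fits were tested on simulated data. Reads gained between tables were compared without a test, since the columns of a sample share the added reads.

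The 3 genes and the gene lists were chosen with earlier results of these data known. All called bins of a gene in a table were named where there were at most 12, otherwise the 6 with the largest absolute log2 difference. For a gene with none, the 2 bins with most reads and the 2 with the largest difference were named, and the 2 models with the highest Pearson r for likeness. Bins named beyond this rule, after their values were seen, were E005, E014 to E017, E020 and E021 of Bbs9 and the bins of Fbf1 and Evi5l named for their share of reads or their usage. The alternatives were values as deposited with and without the fifth 100 ng column, quantile normalization, size factors from models on no kit-read list, a pseudocount of 0.1, no filter, the replicate number as a block and leaving out each column.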

Additional observations from a re-analysis of the deposited data

Results flagged for a closer look

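In 3 of 160 groups of 5 columns (1.88%), 1 column lay far from the other 4, with a gap to its nearest neighbour above 0.71 of the whole range. For independent normal values about 1 group in 20 would be flagged. Most of these groups are bins named for their limma results, and many repeat the same reads between tables. The share of flagged groups therefore cannot be set against that rate. In the TruSeq 20M table the Evi5l total of replicate 2 of the 100 ng background was the lowest at 4.16 FPKM equivalents, with the next at 4.66, a gap of 0.724 of the range. In the same group of columns Fbf1 E028 was highest in replicate 1, at 5.85 against 5.20 for the next (0.738). In the NuGENv2 40M table the 100 ng value of Fbf1 E029 was highest in replicate 1, at 15.4 against 9.43 (0.762). E029 passed the limma threshold there also without that column, as its call was lost only without replicates 2 or 3 of the 100 ng background and replicates 3, 4 or 5 of the 1000 ng background.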

How the results depend on the processing

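Counts of called bins of the 3 genes depended most on the scaling. With values as deposited, in which the fifth 100 ng column is in another unit, limma called 0 bins in each of the 6 tables and the usage of 2 bins at 20M NuGENv2 reads in place of 0. Without that column the deposited values gave 0 bins in each NuGENv2 table, 66, 2 and 9 at 20M, 40M and 80M TruSeq reads, and again 2 for usage. These values carry no correction for depth: the median difference over all bins moved by up to 0.19 with the deposited values, and in the TruSeq 20M table by -0.56, or -0.84 without the fifth column. Quantile normalization gave 0 bins at 20M and 11 at 80M NuGENv2 reads. Size factors from models on no kit-read list gave 2 and 12 there and 62 at 20M TruSeq reads, and a pseudocount of 0.1 gave 2 at 20M NuGENv2 reads. The cause was not tested. With no filter, all 80 single results kept their direction and side of the threshold, and with a pseudocount of 0.1, 76 of 80 did. Leaving out 1 column gave 0 to 3 bins at 20M, 2 to 7 at 40M and 4 to 12 at 80M NuGENv2 reads, 35 to 45, 13 to 21 and 18 to 25 at 20M, 40M and 80M TruSeq reads, and 0 to 0 for usage at 20M NuGENv2 reads. Usage in the other 5 tables was not refitted under any alternative. Without replicate 5 of the 1000 ng background the NuGENv2 counts were 3, 7 and 12. At 20M NuGENv2 reads the count was 0 without any other column except replicate 2 of the 1000 ng and replicate 3 of the 100 ng background. At 40M it was 2 without replicates 3 or 4 of the 1000 ng and 3 without replicates 1 to 4 of the 100 ng background, and at 80M it was 4 without replicate 2 of the 1000 ng or replicates 1 or 5 of the 100 ng background. The replicate numbers did not pair the columns: the correlation of same-numbered deviations was -0.03, -0.08, -0.38, -0.11 and 0.09. With the replicate number as a block the counts were 0, 1 and 9 in the NuGENv2 tables and 36, 14 and 20 in the TruSeq tables, and 16 of 80 single results no longer passed, among them the Fbf1 and Evi5l totals at 40M NuGENv2 reads (limma adjusted p = 0.052 each). Directions turned as follows. With values as deposited the Fbf1 total stood at 0.025, 0.018 and 0.0044 at 20M, 40M and 80M NuGENv2 reads, Fbf1 E001 at 0.0021 at 40M NuGENv2 reads and Evi5l E009 at 0.0028 at 80M TruSeq reads. Without the fifth column the Fbf1 total was 0.0046 at 20M NuGENv2 reads. In the TruSeq 20M table the deposited values gave -0.12 for the Bbs9 total, -0.44 for the Evi5l total, -0.036 and -0.047 for Bbs9 E023 and E020, and -0.27, -0.58, -0.61, -0.68 and -0.080 for Evi5l E001, E002, E003, E008 and E013. Without the fifth column they gave -0.24 and -0.64 for these totals, -0.17, -0.21, -0.27 and -0.25 for Bbs9 E022, E028, E023 and E020, and -0.42, -0.88, -0.92, -0.022, -0.99 and -0.13 for Evi5l E001, E002, E003, E004, E008 and E013. Evi5l E008 was -0.018 with quantile normalization and -0.15 with size factors from models on no kit-read list, which gave -0.035 for the Evi5l total. Depth limits single bins: Fbf1 E019 and Bbs9 E019 had at most 10 and 31 reads in a column at 20M NuGENv2 reads, and several longer bins had fewer.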
